A study of Mus musculus with 6 samples.

Results

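The genes examined were 10 members of the Hippo-YAP pathway, listed by symbol with earlier results of these data known, in colonic crypts of mice that received the EZH2 inhibitor GSK503 or vehicle. All 10 had a row among the 18049 genes of the deposited table, and all 10 passed the filter on low values. They comprised 4 genes grouped as YAP-TEAD targets (*Ccn1*, *Ccn2*, *Amotl1* and *Amotl2*) and 6 pathway components, namely the coactivators *Yap1* and *Wwtr1*, the DNA-binding partners *Tead1* and *Tead3*, and the kinases *Lats1* and *Lats2*. The grouping has limits, since the proteins of *Amotl1* and *Amotl2* also bind YAP, and *Lats2* is itself a known YAP target.

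Total RNA-Seq was performed on colonic crypts of 3 control and 3 GSK503-treated mice, with 1 library per mouse. Mice of both groups carried a Villin-Cre transgene, which acts in intestinal epithelium, and a knocked-in humanized *Tgfbr2* allele with a poly(A) microsatellite. All were kept on a Western-style diet. Treated mice received GSK503 at 200 μg/kg by repeated tail vein injection over 9 weeks, and control mice received 20% captisol in PBS. The age at collection is not given in the sources used here. EZH2 is the methyltransferase of the Polycomb repressive complex PRC2, which places the H3K27me3 mark, and GSK503 blocks its catalytic activity.

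In the Hippo pathway, upstream kinases activate LATS1 and LATS2, which phosphorylate the coactivators YAP and TAZ (the product of *Wwtr1*) and hold them in the cytoplasm. Unphosphorylated YAP and TAZ enter the nucleus, bind TEAD proteins and switch on genes such as *Ccn1* and *Ccn2*. In the gut the pathway is known for its part in crypt regeneration after injury and in colorectal tumor growth. Transcript levels do not show the phosphorylation or the location of YAP.

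The promoter of *Ccn1* is shown because the gene is a widely used readout of YAP-TEAD activity. The run is the 250 bases before the start of the canonical transcript, written 5′ to 3′ on the gene's own strand of GRCm39, and capitals mark the TEAD motif CATTCC or its reverse complement GGAATG. The window lies on the minus strand at chr3:145355739-145355988.
Ccn1: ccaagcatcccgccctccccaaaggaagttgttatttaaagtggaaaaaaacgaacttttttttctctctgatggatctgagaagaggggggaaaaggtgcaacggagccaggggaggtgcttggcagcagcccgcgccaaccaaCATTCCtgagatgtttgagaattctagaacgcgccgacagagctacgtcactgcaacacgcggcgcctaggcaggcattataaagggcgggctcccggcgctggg
The *Ccn1* window held 1 match, 105 to 100 bases before the start.

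Of 9 members whose window was searched, *Ccn2* not among them, 6 held at least 1 TEAD motif in this window, against 12.1% of 21749 protein-coding promoters of the same length. *Amotl2* alone among these held at least 2 matches, at 235 to 230 and 135 to 130 bases before the start, against 0.933% of all promoters. Single matches lay at 77 to 72 bases before the start of *Yap1*, 218 to 213 before *Wwtr1*, 193 to 188 before *Tead1* and 170 to 165 before *Tead3*, so both target and component promoters carried the letters. *Amotl1*, *Lats1* and *Lats2* had no match in this window. Of the 9 windows 5 overlap annotated exons, with 176 of 250 bases in *Lats2*, 84 in *Amotl1*, 82 in *Wwtr1*, 36 in *Amotl2* and 18 in *Lats1*, so these are not wholly upstream sequence. Other motifs searched on both strands were the AP-1 motif TGANTCA, found in 6.17% of all promoters and in none of the 9, the CArG box bound by SRF, found in 1.4% and in none of the 9, and the cAMP response element TGACGTCA, found in 1.7% and, among the 9, with 2 matches in *Tead1*. These are letter matches, and binding was not measured.

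**Figure D1:**
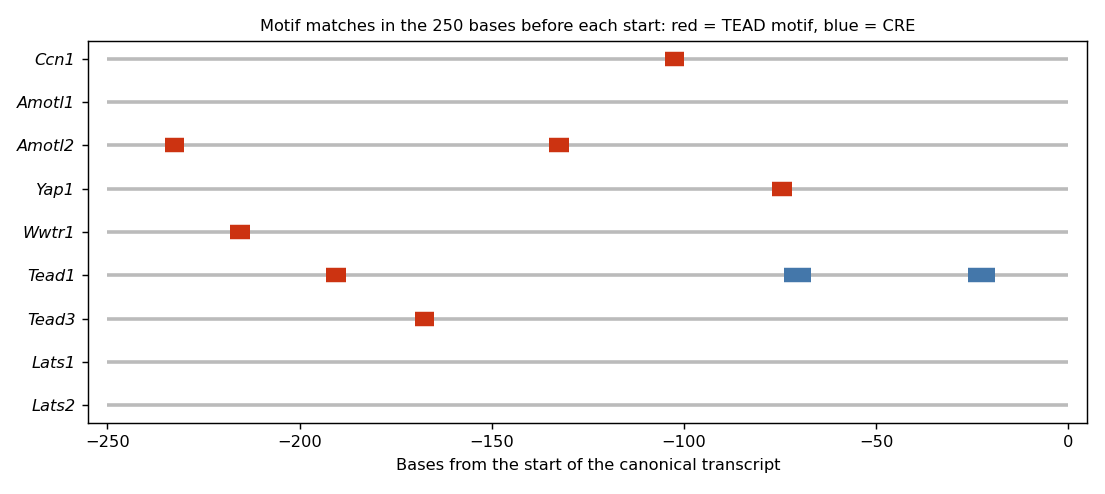
Positions of the TEAD motif (red) and the cAMP response element (blue) in the 250 bases before the start of the canonical transcript of 9 members, with distance from the start on the x axis. *Amotl2* carries 2 TEAD motifs, at 235 to 230 and 135 to 130 bases before the start, and *Amotl1*, *Lats1* and *Lats2* carry none.

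The libraries were deep, with estimated totals of 1.08e+08 to 1.35e+08 counts, so that 3 counts in a library corresponded to a value of 0.0228 to 0.0271. Epithelial markers dominated every library, with a summed level of 12677 to 14181 in control mice and 13601 to 16015 in treated mice for 8 genes such as *Epcam*, *Krt8* and *Vil1*. GSK503-treated mouse 3 stood apart in markers of stroma. The summed level of 8 smooth muscle markers was 22.7, 94.1 and 49.6 in control mice 1 to 3, and 5.11, 4.76 and 127 in treated mice 1 to 3. For 8 fibroblast markers these sums were 76.1, 97.2 and 81.5 in control mice, and 35.8, 42.3 and 143 in treated mice. Macrophage markers were likewise lowest in treated mice 1 and 2 and highest in treated mouse 3. Their sums were 28.5, 46.8 and 26.9 in control mice, and 11.4, 7.66 and 62.0 in treated mice. The sums ranged from 13.6 to 16.2 in control and 14.8 to 26.5 in treated mice for 8 endothelial markers, from 12.0 to 26.0 and 9.31 to 12.4 for 8 T and B cell markers, and from 8.40 to 10.8 and 4.83 to 6.78 for 5 neuron and glia markers, of which *Sox10* was at 0 in 2 control mice. In crypt tissue, fewer cells of a type and less RNA per cell cannot be told apart.

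Genes of the sex chromosomes also separated the groups. *Xist*, which silences one X chromosome in female cells, was at 0.72 ± 0.269 in control mice and 1014 ± 207 in treated mice, and the Y-linked *Uty* at 47.3 ± 5.80 and 0.94 ± 0.234 (SD, n = 3 each). Treatment and sex therefore cannot be told apart in any comparison here, and every change given as GSK503 against control is also one between these sets of mice. *Ezh2*, whose product is the drug target, was at 43.6 ± 5.29 in control and 36.0 ± 0.769 in treated mice (adjusted p = 0.291, limma), which does not measure inhibition of the enzyme.

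**Figure D2:**
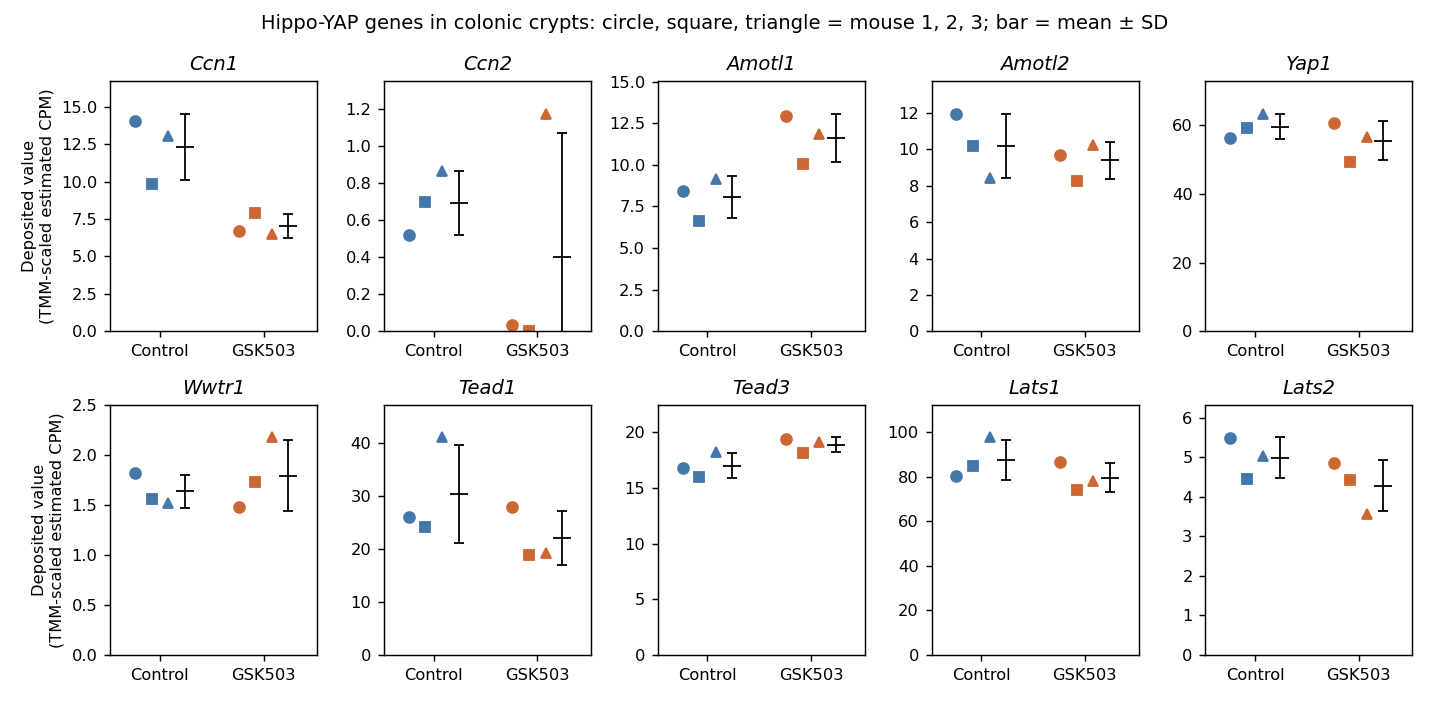
Deposited values (TMM-scaled estimated CPM, linear axis from 0) of the 10 members in each mouse, with the mean ± SD of 3 mice beside the points; the lower end of the *Ccn2* bar in treated mice falls below 0 and is not drawn. The 3 treated mice lie below all 3 controls for *Ccn1* (6.49 to 7.92 against 9.83 to 14.1) and above them for *Amotl1* (10.1 to 13.0 against 6.65 to 9.13), and the groups overlap for the other 8 genes.

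*Ccn1* fell in the treated mice, and it was the only member that passed the test. A gene was called changed when limma's adjusted p was below 0.1 and the absolute log2 fold change (log2FC) above 0.25, and 1 of 10 members was called lower and 0 higher, against 0.558% and 1.41% of the 16670 genes tested and 1.97% in either direction. *Ccn1* (ENSMUSG00000028195, minus strand of chromosome 3 from 145352720 to 145355738) encodes CYR61, a secreted matrix protein that binds integrins. Its values were 14.1, 9.83 and 13.1 in control mice 1 to 3, and 6.70, 7.92 and 6.49 in treated mice 1 to 3. None of the treated values reached the lowest control value, and the treated values spread less than the control values. The means were 12.3 ± 2.22 and 7.04 ± 0.77 (SD, n = 3), so that treated mice held 57.1% of the control level. On the log2(value + 0.1) scale the difference was -0.79 (SE 0.17, 95% interval -1.16 to -0.41, limma adjusted p = 0.0741). An exact permutation test over mice gave p = 0.1, the smallest that 3 against 3 allows.

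The *Ccn1* call lay near its threshold. It was lost when control mouse 1 (adjusted p = 0.19), control mouse 3 (0.196), treated mouse 1 (0.192) or treated mouse 2 (0.212) was left out of limma, while its log2FC stayed between -0.94 and -0.69 over the 6 such fits. Without treated mouse 3, the library rich in stromal markers, the log2FC was -0.73 (adjusted p = 0.0975). At an adjusted p below 0.05, 0 members were called by limma against 0.642% of all genes, while at an unadjusted p below 0.05 *Ccn1* was lower and *Amotl1* higher, against 6.27% of all genes lower and 7.06% higher, and limma-voom on estimated counts also called 1 member at the adjusted p of 0.1.

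*Ccn2* was the weakest expressed member and the most variable. It encodes CTGF, a matricellular protein made by mesenchymal and other cells, and lies on the plus strand of chromosome 10 from 24471333 to 24474900 (ENSMUSG00000019997). The values were 0.518, 0.696 and 0.864 in control mice, and 0.0339, 0 and 1.17 in treated mice. Treated mice 1 and 2 were at or near the floor and treated mouse 3 was the highest of the 6, so the groups overlapped. These values rested on 68, 77 and 109.85 estimated counts in control mice and on 4, 0 and 141 in treated mice, and a count of 0 allows a value of up to 0.0239 in that library. The log2FC was -1.60 (SE 0.84, 95% interval -3.49 to 0.29, limma adjusted p = 0.461). It depended on the pseudocount, and over all alternatives it ran from -3.63 to -0.37.

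With treated mouse 3 left out, *Ccn2* had a log2FC of -2.75 (SE 0.44, limma adjusted p = 0.0276) and was called lower together with *Ccn1*, against 1.49% of all genes called lower and 3.64% called in either direction in that fit. The remaining treated group then held 2 mice, and the estimate of spread was pooled with the controls. The same library held the highest smooth muscle, fibroblast and macrophage sums, and treated mice 1 and 2 the lowest. The part of these cells in the *Ccn2* values was not tested.

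The genes nearest to *Ccn2* in profile over the 6 mice, a comparison chosen after the *Ccn2* values were seen and run over 14732 genes with a mean of at least 0.3, were *Bgn*, *Axl*, *Ms4a4d*, *Igkv6-15*, *Lmod1*, *Tns1*, *Pde1a* and *Postn*. The root mean square differences from *Ccn2*, in log2 units after each gene's own mean was taken off, ran from 0.23 for *Bgn* to 0.37 for *Postn*. *Bgn* encodes the matrix proteoglycan biglycan, *Lmod1* a smooth muscle actin regulator and *Postn* the fibroblast matrix protein periostin. The others are not described here, among them *Ms4a4d* and *Igkv6-15*, which lay nearer to *Ccn2* than *Lmod1* and *Postn*. Which cells express these genes in the crypt libraries was not tested. Of these 8 genes *Lmod1* alone stands in a marker list used here, that of smooth muscle, and genes chosen for nearness to *Ccn2* share its pattern by construction.

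**Figure D3:**
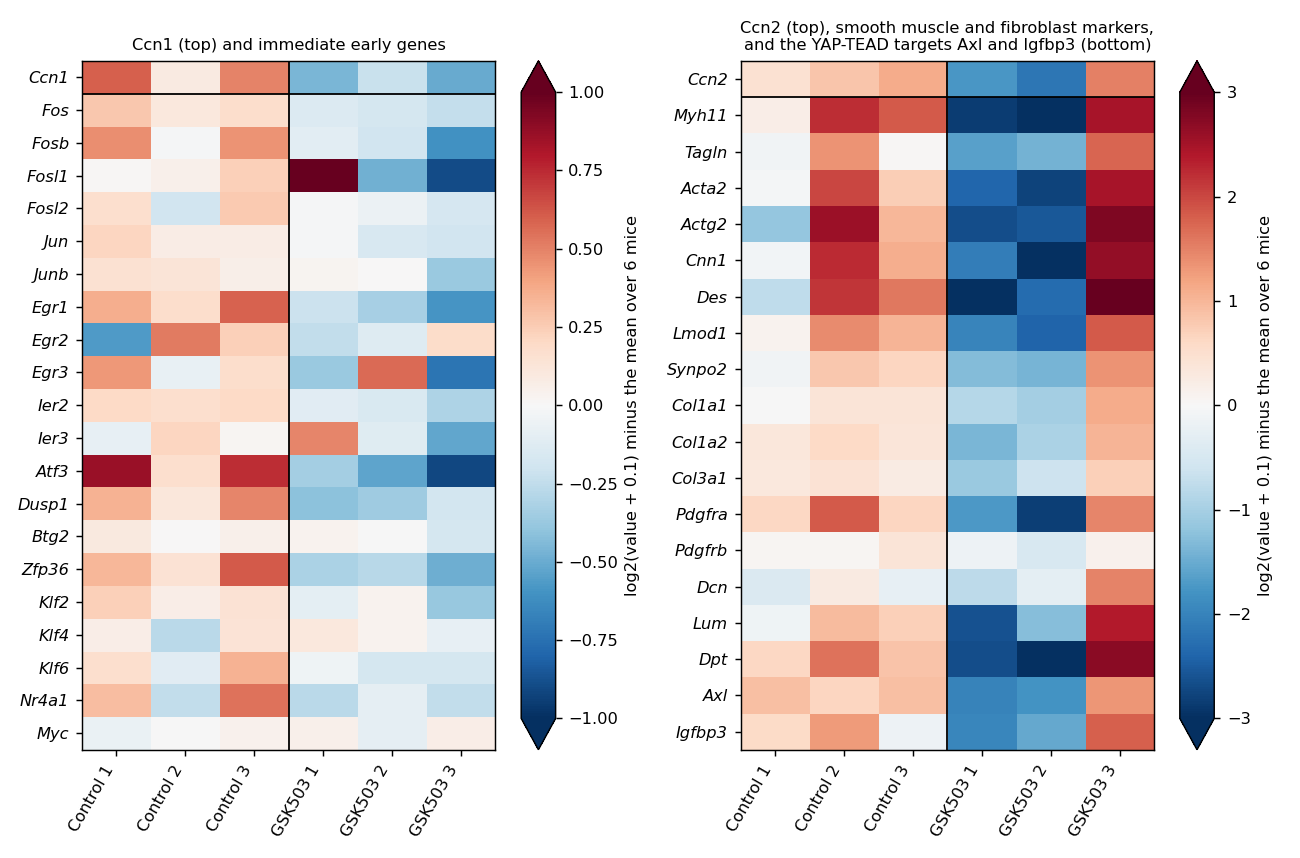
Profiles over the 6 mice as log2(value + 0.1) minus the gene's mean (color scale in log2 units; the 2 panels have different limits, and cells past a limit take its end color). *Ccn1* on the left stands above 20 immediate early genes, of which 18 have a negative log2FC, and *Ccn2* on the right stands above smooth muscle and fibroblast markers, whose summed levels are lowest in treated mice 1 and 2 and highest in treated mouse 3.

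The angiomotin-like genes, which encode junctional scaffolds that bind YAP and activate LATS kinases, differed in the sign of their change, and neither passed the test. *Amotl1* (ENSMUSG00000013076, chromosome 9, 14453262 to 14556352, minus strand) was at 8.40, 6.65 and 9.13 in control mice and 13.0, 10.1 and 11.8 in treated mice. All 3 treated values lay above all 3 control values, as they did for 9.84% of all genes tested. The log2FC was 0.53 (SE 0.16, 95% interval 0.16 to 0.89), with a limma adjusted p of 0.193 and an exact permutation p of 0.1. The adjusted p ran from 0.155 to 0.428 over 17 alternatives, and none brought it below 0.1.

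*Amotl2*, on the plus strand of the same chromosome from 102593836 to 102610617 (ENSMUSG00000032531), was at 12.0, 10.2 and 8.40 in control mice and 9.67, 8.24 and 10.3 in treated mice. The groups overlapped, and the log2FC was -0.11 (SE 0.16, 95% interval -0.47 to 0.26, limma adjusted p = 0.826). Control mouse 1 set the sign, since without it the log2FC was 0.014. The difference between *Amotl1* and *Amotl2* in their response was not tested.

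The coactivators did not pass the test. *Yap1* (ENSMUSG00000053110, minus strand of chromosome 9, 7932000 to 8004661) was at 56.1, 59.1 and 63.3 in control mice and 60.7, 49.4 and 56.5 in treated mice. Treated mouse 2 was the lowest, and the groups overlapped. The 95% interval of the *Yap1* log2FC of -0.10 (SE 0.094) ran from -0.31 to 0.11 (limma adjusted p = 0.679).

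*Wwtr1* (ENSMUSG00000027803, minus strand of chromosome 3, 57363067 to 57483331) was at 1.83, 1.56 and 1.53 in control mice and 1.48, 1.73 and 2.18 in treated mice. The highest value was again that of treated mouse 3, and without it the log2FC turned from 0.11 to -0.028. The interval for all 6 mice, -0.47 to 0.69 (SE 0.26, limma adjusted p = 0.898), was wider than that of *Yap1*.

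Of the TEAD factors, which carry the DNA-binding domain that YAP and TAZ lack, *Tead1* had the lowest log2FC among the 6 components. *Tead1* (ENSMUSG00000055320, plus strand of chromosome 7, 112278522 to 112506014) was at 26.1, 24.1 and 41.1 in control mice and 27.9, 18.9 and 19.3 in treated mice. Control mouse 3 was well above the other 5, and treated mouse 1 lay among the controls. The log2FC was -0.45 (SE 0.21, 95% interval -0.92 to 0.028, limma adjusted p = 0.409), and it was -0.21 when control mouse 3 was left out.

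*Tead3* (ENSMUSG00000002249, minus strand of chromosome 17, 28550645 to 28569791) was at 16.8, 16.0 and 18.2 in control mice and 19.4, 18.1 and 19.1 in treated mice. Treated mouse 2 fell just below control mouse 3, so the groups overlapped by this pair. The log2FC of 0.15 (SE 0.10, 95% interval -0.072 to 0.38) had a limma adjusted p of 0.554.

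Neither LATS kinase passed the test. *Lats1* (ENSMUSG00000040021, plus strand of chromosome 10, 7556736 to 7592226) was at 80.2, 85.0 and 97.7 in control mice and 86.7, 73.8 and 78.0 in treated mice. *Lats2* (ENSMUSG00000021959, minus strand of chromosome 14, 57926960 to 57995845) was at 5.49, 4.45 and 5.02 in control mice and 4.86, 4.42 and 3.58 in treated mice. In both genes 1 treated mouse lay within the control range. The log2FC was -0.14 for *Lats1* (SE 0.095, 95% interval -0.35 to 0.075, adjusted p = 0.573) and -0.22 for *Lats2* (SE 0.19, 95% interval -0.64 to 0.20, adjusted p = 0.662), both by limma.

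Set side by side, targets and components differed in how far their members spread. The 4 targets had log2FC of -1.60, -0.79, -0.11 and 0.53 with a median of -0.45, and 1 was called. The lowest of these and the median leaned on *Ccn2*, the weakest expressed member. With the filter of at least 1 in every mouse, which left out *Ccn2*, the target median was -0.11. With a pseudocount of 1 the median of the targets was -0.23. The 6 components lay between -0.45 and 0.15 with a median of -0.12, and limma called 0 of them, with 0 at an unadjusted p below 0.05. Over all 10 members the median was -0.12, with 3 positive and 7 negative values, beside a median of -0.0053 over all genes tested. In 1 member all treated mice lay below the controls and in 1 above them, against 9.22% and 9.84% of all genes and 19.1% in either direction. No test was made between targets and components.

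**Figure D4:**
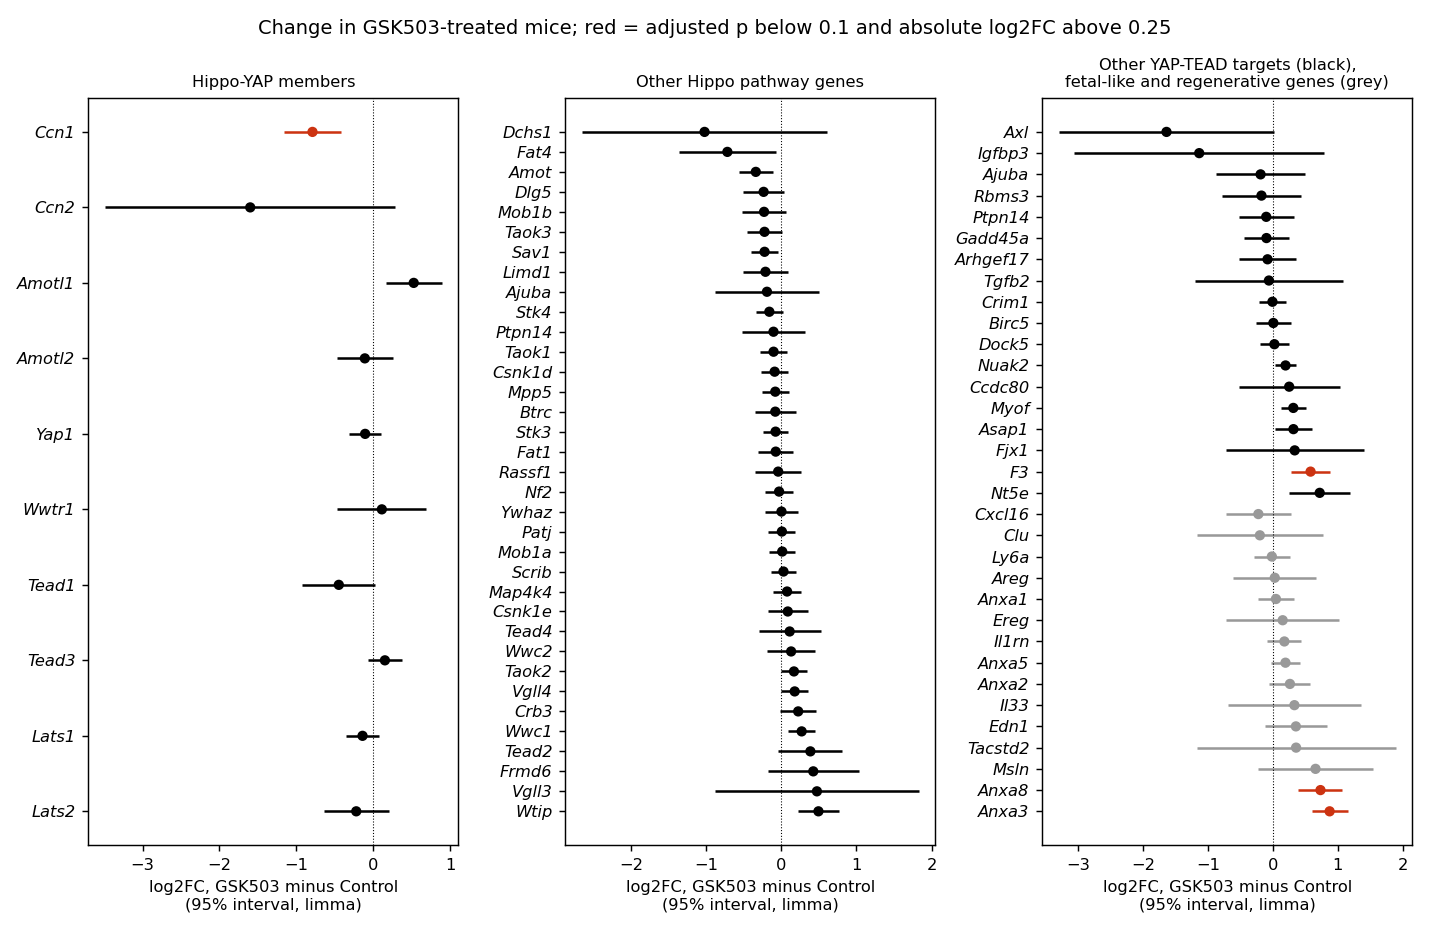
Change of each gene as log2FC of GSK503 minus control with its 95% interval (limma), for the members in order of role, for other Hippo pathway genes and for other YAP-TEAD targets (black) and fetal-like genes (grey), where red marks a call and *Mpp5* is the table's symbol for *Pals1*. *Ccn1* at -0.79 is the single red member, and the 35 other Hippo genes hold no call.

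Levels per kilobase of canonical transcript were compared between paralogs, and each order rests on the length of 1 annotated transcript per gene. *Yap1* stood at 13.7 per kb and *Wwtr1* at 0.366 per kb, a ratio of 37.6 that ran from 29.1 to 46.6 over the 6 mice. *Lats1* at 11.2 per kb exceeded *Lats2* at 0.845 per kb by 13.3 times, with 10.8 to 16.1 over the mice. Among TEAD genes the order of level per kb was *Tead3* (6.82), *Tead2* (4.05), *Tead1* (2.63) and *Tead4* (0.64), in which the ranges of *Tead2* and *Tead1* overlapped and those of *Tead3* and *Tead2* did not.

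*Amot* was the leading angiomotin at 6.84 per kb, followed by *Amotl2* at 2.26 and *Amotl1* at 1.10 per kb. Per kb, *Amotl2* exceeded *Amotl1* in all 6 mice, by 1.55 to 3.19 times. This order rests on the transcript lengths used, 4328 bases for *Amotl2* and 8985 for *Amotl1*. Before division by length, the mean of *Amotl1* was below that of *Amotl2* in control mice (8.06 against 10.2). It was above that of *Amotl2* in treated mice (11.6 against 9.39). Among CCN genes *Ccn1* stood at 4.77 per kb, against 0.402 for *Ccn3* and 0.201 for *Ccn2*. In the order of the 10 members by level per kb, *Yap1*, *Lats1*, *Tead3*, *Ccn1*, *Tead1*, *Amotl2*, *Amotl1*, *Lats2*, *Wwtr1* and *Ccn2*, neighbors overlapped in their ranges over mice except for *Lats1* with *Tead3*, *Amotl2* with *Amotl1* and *Lats2* with *Wwtr1*.

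**Figure D5:**
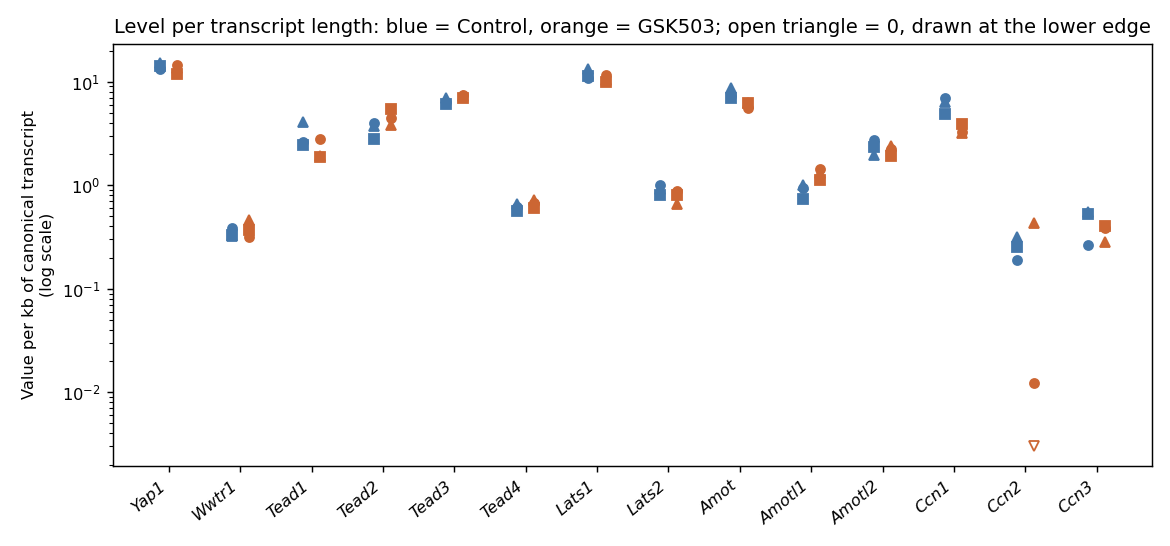
Value per kilobase of canonical transcript (log axis) for Hippo-YAP genes and their paralogs, with 1 symbol per mouse and an open triangle at the lower edge for a value of 0. *Yap1* lies 29.1 to 46.6 times above *Wwtr1* and *Lats1* 10.8 to 16.1 times above *Lats2* in the same mouse.

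The wider Hippo pathway, from upstream regulators to the other TEAD factors and YAP cofactors, held no call. Of 36 further pathway genes, such as the MST kinases *Stk3* and *Stk4*, their partner *Sav1* and the tumor suppressor *Nf2*, 35 were tested. Limma called 0 of them, against 1.97% of all genes in either direction. Limma-voom called 1, *Wtip*. At an unadjusted p below 0.05, 2 were higher (*Wtip* and *Wwc1*) and 3 lower (*Amot*, *Sav1* and *Fat4*), which makes 5 of 35 genes, close to the 13.3% of all genes that passed in either direction. The median log2FC was -0.042, with 16 positive and 19 negative values. *Vgll1* had no row under that symbol among the deposited genes.

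The 3 genes of this list with the smallest p were regulators of LATS or YAP. *Wtip*, an Ajuba-family LIM protein that restrains LATS, was at 9.15 ± 0.487 in control and 12.9 ± 0.818 in treated mice (log2FC 0.49, SE 0.12, limma adjusted p = 0.106). *Amot*, the founding angiomotin, which lies on the X chromosome from 144229421 to 144288177, was at 53.3 ± 6.57 and 41.9 ± 2.48 (log2FC -0.34, SE 0.10, limma adjusted p = 0.177). *Wwc1*, which encodes the LATS activator KIBRA, was at 55.6 ± 4.21 and 66.9 ± 2.87 (log2FC 0.27, SE 0.082, limma adjusted p = 0.186). Without treated mouse 3, limma called 3 of the 35 genes, against 3.64% of all genes in that fit. These were *Wtip* (0.54) and the polarity gene *Crb3* (0.34) as higher and the atypical cadherin *Fat4* (-1.01) as lower. For *Fat4*, treated mice 1 and 2 (2.07 and 2.195) lay below all controls (3.48 to 5.52), and treated mouse 3 lay within the control range.

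Among other YAP-TEAD targets no gene was called lower beside *Ccn1*. Of 20 listed, 18 were tested, 1 was called higher and 0 lower, against 1.41% and 0.558% of all genes. There were 9 positive and 9 negative values, with a median log2FC of -0.0019. The called gene was *F3*, the coagulation initiator tissue factor, at 12.8 ± 2.08 in control and 18.9 ± 0.919 in treated mice (log2FC 0.58, SE 0.14, limma adjusted p = 0.0995). The call lay at its threshold, with an adjusted p of 0.0805 to 0.336 over 17 alternatives, and leaving out any 1 mouse ended it. Next by p were *Myof*, a membrane repair protein, at 24.0 ± 1.01 and 29.8 ± 1.5 (log2FC 0.31, adjusted p = 0.153), and *Nt5e*, the ectonucleotidase CD73, at 49.3 ± 11.7 and 82.1 ± 24.5 (log2FC 0.72, adjusted p = 0.174), both by limma. *Ankrd1* had no row under that symbol among the deposited genes. *Ajuba* and *Ptpn14* stood both in this list and in that of other Hippo pathway genes, so the lists are not separate.

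A pair of listed targets shared the pattern of *Ccn2*. *Axl*, a receptor tyrosine kinase, was at 3.45, 2.87 and 3.43 in control mice and 0.373, 0.446 and 4.64 in treated mice. *Igfbp3*, a carrier of insulin-like growth factors, was at 1.77, 2.93 and 1.03 in control mice and 0.220, 0.335 and 4.24 in treated mice. In both genes treated mice 1 and 2 lay below all controls and treated mouse 3 above them. Without treated mouse 3 both were called lower, *Axl* with a log2FC of -2.72 (adjusted p = 0.00457) and *Igfbp3* of -2.32 (adjusted p = 0.0517, limma), and *F3* was not. That fit called 1.49% of all genes lower. *Axl* and *Igfbp3* were named after their values were seen, and the part of stromal cells in them was not tested. The pattern was not limited to listed targets. *Dchs1*, of the other Hippo pathway genes, was at 0.145, 0.434 and 0.429 in control mice and 0.0254, 0 and 0.557 in treated mice. *Dchs1* was also named after its values were seen, and it was not called without treated mouse 3.

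Genes of the fetal-like, regenerative state of intestinal epithelium, which YAP is known to induce, held a pair of calls, both annexins. Of 16 listed, 15 were tested, 2 were called higher and 0 lower, against 1.41% and 0.558% of all genes. There were 12 positive and 3 negative values, with a median log2FC of 0.19. With scaling by library size alone, 10 were positive and 5 negative, with a median of 0.078. The median of all genes was then -0.12. *Anxa3*, a calcium-dependent phospholipid-binding annexin, rose from 57.0 ± 5.64 to 105 ± 17.0 (log2FC 0.87, SE 0.12, limma adjusted p = 0.0157). *Anxa8*, of the same family, rose from 37.9 ± 6.51 to 63.1 ± 11.5 (log2FC 0.73, SE 0.15, limma adjusted p = 0.0699). The best-known genes of this state had log2FC near or below 0, with -0.018 for *Ly6a* (adjusted p = 0.967) and -0.20 for *Clu* (adjusted p = 0.89). The number called fell to 1 without control mouse 1, control mouse 2 or treated mouse 1, to 0 without treated mouse 2, and was 3 without treated mouse 3. The share of all genes called also moved, from 0.33% without treated mouse 2 to 3.64% without treated mouse 3.

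The remaining CCN genes gave no call by limma, with 0 at an unadjusted p below 0.05 among the 2 tested. *Ccn3* had a log2FC of -0.27 (adjusted p = 0.774) and *Ccn4* of -0.035 (adjusted p = 0.982). *Ccn6* did not pass the filter, and *Ccn5* had no row under that symbol among the deposited genes.

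*Ccn1* is also known as an immediate early gene, induced within minutes by growth factors and stress, and every call among such genes was lower. Of 20 listed, all were tested, 6 were called lower and 0 higher, against 0.558% and 1.41% of all genes, and 18 had a negative log2FC, with a median of -0.28. The list was chosen with earlier results of these data known, and the paper had named *Ccn1* and *Atf3* as lower in crypts of treated mice. The count is therefore no separate support for the fall of *Ccn1*. The called genes were the transcription factors *Atf3* (log2FC -1.18, adjusted p = 0.0286), *Egr1* (-0.76, 0.0335) and *Fos* (-0.37, 0.0741), the RNA-decay factor *Zfp36* (-0.72, 0.0321), the MAP kinase phosphatase *Dusp1* (-0.63, 0.045) and *Ier2* (-0.38, 0.0629), all by limma. *Atf3* fell from 82.9 ± 19.8 to 36.2 ± 6.98 and *Egr1* from 65.3 ± 9.45 to 38.5 ± 5.03. Summed over the list, the level was 2169 to 2553 in control mice and 1832 to 2094 in treated mice, without overlap. Of all single genes tested, 9.22% lay below every control mouse in every treated mouse. The sum is weighted toward abundant genes, such as *Fos* and *Jun* (control means 418 and 399). The calls in this list depended on single mice. The number called lower was 3 without control mouse 1, 5 without control mouse 2 and 2 without control mouse 3. It was 3 without treated mouse 1, 0 without treated mouse 2 and 6 without treated mouse 3. The share of all genes called ran from 0.33% without treated mouse 2 to 3.64% without treated mouse 3. Over 17 alternatives the highest adjusted p ran from 0.224 for *Atf3* to 0.325 for *Fos*.

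The genes nearest to *Ccn1* in profile, over 12806 genes with a mean of at least 1, were *Ces2f*, *Zfp362*, *Neurod1*, *Zfp36*, *Ypel2*, *Egr1*, *Gm10335* and *Tsku*. Their root mean square differences ran from 0.13 to 0.16 in log2 units over the 6 mice. *Zfp36* and *Egr1* stand in the list of immediate early genes. Genes chosen for nearness to a gene that fell are lower by construction, so their own changes are no support for that of *Ccn1*. *Ccn1* and *Ccn2* did not share a profile, since treated mouse 3 was the lowest of the 6 for *Ccn1* and the highest for *Ccn2*.

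Genes of the SRF and MRTF cytoskeletal program, which overlaps with YAP target genes, held a single call. Of 15 tested, 1 was called higher and 0 lower, against 1.41% and 0.558% of all genes. The list held 9 positive and 6 negative values, with a median log2FC of 0.11, which was -0.0021 with scaling by library size alone. The called gene, *Fhl2*, a LIM-domain cofactor, rose from 19.4 ± 0.719 to 36.8 ± 2.98 (log2FC 0.92, SE 0.093, limma adjusted p = 0.00259). Next by p were *Tpm4*, a tropomyosin (log2FC 0.33, adjusted p = 0.135), and *Mrtfb*, an SRF coactivator (log2FC -0.45, adjusted p = 0.168).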

How the data were processed

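The authors used STAR to align 76 bp reads to GRCm39, RSEM for gene-level count estimates and edgeR for TMM scaling. The deposited signal of a gene is thus an estimated CPM on the TMM-scaled library size, so that levels are relative within a library. The annotation release is not given in the sources used here. In each library 81.0% to 83.4% of values under 1000 counts were whole multiples of 1 step (tolerance 0.02), from which totals and estimated counts were derived. These and the floor of 3 counts cover counting error only. The number of other sample columns left unused was 0.

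Values were tested with limma 3.58.1 (R 4.3.3; lmFit and eBayes with an intensity trend) on log2(value + 0.1), after a filter of at least 0.1 in at least 3 mice that left out 1379 genes, with Benjamini-Hochberg adjustment over 16670 genes. Fold changes on this scale understate the change of low genes. Because the deposited values are scaled and not counts, a count test was not the main test. Replicates were separate mice, and p-values measure the spread between them. Single values were compared by two-sided exact permutation. Scripts were tested on simulated data.

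Gene lists covered the members by role, other Hippo genes, other YAP-TEAD targets, fetal-like genes, CCN genes, immediate early genes, SRF and MRTF genes and cell type markers. From each list the called genes, or else those 3 with the smallest p, were named, with 8 nearest profiles for *Ccn1* and *Lats2*. Members and lists were chosen with earlier results of these data known. Symbols were matched to GENCODE genes of GRCm39 (95.36% to a single gene), which gave coordinates, canonical transcript lengths and promoters, read with Python 3.11.15. Alternatives changed the pseudocount, filter, scaling, trend, empirical Bayes step, replicate block, mice, test and sex-chromosome genes. Other data types of the study were not analysed here, and 1 engineered allele and 1 member's promoter are not reported here.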

Additional observations from a re-analysis of the deposited data

How the results depend on the processing

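Of the 10 members, 8 kept the sign of their log2FC under every alternative run. *Amotl2* turned to 0.014 without control mouse 1 (range -0.24 to 0.014 over the fits that left out 1 mouse) and *Wwtr1* to -0.028 without treated mouse 3 (range -0.028 to 0.24). The number of members called was 0 instead of 1 without the intensity trend, with the replicate block and at an adjusted p below 0.05, and ran from 0 to 2 when 1 mouse was left out. The *Ccn1* adjusted p ran from 0.0378 with scaling by library size alone to 0.234 without the trend, and was below 0.1 in 11 of 17 alternatives. Other Hippo genes went from 0 calls to 1 with the filter of at least 1 in every mouse, median-of-ratios scaling, robust empirical Bayes or limma-voom, to 2 with library size alone (*Amot* and *Sav1* lower), and to between 0 and 3 when 1 mouse was left out. Other YAP-TEAD targets went from 1 call to 0 with either other pseudocount, no filter, library size alone, no trend, the replicate block or no sex-chromosome genes, and to between 0 and 2 when 1 mouse was left out. Fetal-like genes went from 2 calls to 0 without the trend, to 1 with the replicate block and to between 0 and 3 when 1 mouse was left out. Immediate early genes went from 6 calls to 0 without the trend, to 2 with the replicate block and to 8 with library size alone. Library size alone called 773 of all genes lower, against 93 in the main fit. The cause of these changes was not tested.

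Library size alone moved the median of all genes to -0.12, and 22.2% of calls were then higher instead of 71.6%, while no member changed sign and *Tead3* came to 0.039 and *Wwtr1* to 0.0054. Same-numbered mice did not deviate together (correlations of 0.032, -0.13 and -0.12), so the replicate numbers are not taken to pair them. The block cut calls over all genes from 328 to 94. Among the members depth limits *Ccn2* most, at 0 to 141 estimated counts per library.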

Other observations

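The profile of *Lats2* over the 6 mice was nearest to those of *Pkn3*, *Arg2*, *Tob1*, *Tmppe*, *Bri3*, *Maip1*, *Stn1* and *Snx12* among 12806 genes, with root mean square differences of 0.026 to 0.056 in log2 units. The groups overlapped for *Lats2*, whose log2FC was -0.22.

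Among the cell type markers, limma called *Vwf* (endothelial) as higher, and *Ms4a1* (B cell) and *Ret* (enteric neuron) as lower. *Vwf* and *Ret* went against their own lists, since the other 7 endothelial markers had a negative log2FC (median of the 8 markers -0.27) and the other 3 neuron and glia markers tested a positive one. Each of these calls was lost under some alternative, with a highest adjusted p of 0.202 for *Vwf*, 0.336 for *Ms4a1* and 0.268 for *Ret*.

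The log2FC of all 8 smooth muscle and all 8 macrophage markers was negative, with medians of -1.74 and -0.51, but limma called 0 of each, with 0 at an unadjusted p below 0.05 and 0 called by limma-voom. The treated mean was higher than the control mean for *Des* (5.66 against 5.20) and *Adgre1* (0.845 against 0.649). Without treated mouse 3 the medians were -3.44 and -1.08, and 7 of 8 smooth muscle and 2 of 8 macrophage markers were called lower. In that fit 1.49% of all genes were called lower.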
